A study of Homo sapiens with 4 samples.

Results

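The genes described here are 10 genes of mitochondrial fusion and fission, a listed set out of 20037 protein-coding genes, and the binding of the oestrogen-related receptor ERRα at them. They comprise 3 fusion genes (MFN1, MFN2 and OPA1) and 7 fission genes (DNM1L, FIS1, MFF, MIEF1, MIEF2, MTFP1 and MTFR1), and all 10 were found in the RefSeq gene table of build GRCh38. They were listed by name for their role, with no threshold on a measured value, though with earlier results of these data known. ERRα-bound DNA was mapped by sequencing after chromatin immunoprecipitation (ChIP-seq). The cells were MDA-MB-231, a human triple-negative breast cancer line, grown without any labelled treatment. The series holds 2 ERRα ChIP replicates, taken from a pair of cell cultures, and 2 input libraries of sonicated chromatin without antibody. The antibody against ERRα was used at 5 µg on fixed chromatin, and libraries were read as pairs of 81 bp. All libraries are from a single cell line, and ChIP-seq gives no expression values, so neither the cell line's markers nor the RNA of these genes was checked.

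Mitochondria fuse and divide continually. The mitofusins MFN1 and MFN2 are GTPases that join the outer membranes, and OPA1 is the GTPase that fuses the inner membrane and shapes the cristae. Division is driven by the dynamin-related GTPase encoded by DNM1L, which is recruited to the outer membrane by the adaptors FIS1, MFF, MIEF1 and MIEF2, while MTFP1 is an inner membrane protein that promotes fission and MTFR1 a regulator of it. ERRα is an orphan nuclear receptor known for binding genes of mitochondrial energy metabolism, through an extended form of the nuclear receptor core motif AGGTCA, and MFN2 is among the genes reported as its targets in muscle.

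Promoter sequences are shown for the 4 genes with a reproducible ERRα peak over their start, and for MFN1, the paralogue of MFN2, as a contrast with no peak in any list. Each window runs from 250 bases before to 50 bases after a start listed by RefSeq (GRCh38.p14, plus strand, 5′ to 3′). The windows are chr1:11980194-11980493 for MFN2, chr3:179347459-179347758 for MFN1, chr3:193592958-193593257 for OPA1, chr22:39502040-39502339 for MIEF1 and chr22:30425518-30425817 for MTFP1. In MFN2 and OPA1 the capitals mark the stretch between the summits of the replicates, as far as it lies in the window. In MIEF1 and MTFP1 they mark matches to the core motif AGGTCA on either strand, and in MFN1 a match to CCAAT on the reverse strand.
MFN2: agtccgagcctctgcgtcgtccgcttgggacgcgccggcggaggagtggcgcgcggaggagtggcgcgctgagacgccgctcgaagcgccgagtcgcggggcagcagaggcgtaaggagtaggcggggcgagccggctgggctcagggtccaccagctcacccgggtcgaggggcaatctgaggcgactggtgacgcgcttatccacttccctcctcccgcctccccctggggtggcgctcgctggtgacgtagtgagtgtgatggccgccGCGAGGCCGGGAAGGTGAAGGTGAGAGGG
MFN1: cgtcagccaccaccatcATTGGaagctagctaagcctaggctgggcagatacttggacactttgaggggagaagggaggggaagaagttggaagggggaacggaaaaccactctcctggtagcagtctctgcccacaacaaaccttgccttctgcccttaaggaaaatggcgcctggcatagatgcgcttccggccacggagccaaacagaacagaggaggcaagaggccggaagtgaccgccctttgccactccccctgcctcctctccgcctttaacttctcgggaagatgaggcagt
OPA1: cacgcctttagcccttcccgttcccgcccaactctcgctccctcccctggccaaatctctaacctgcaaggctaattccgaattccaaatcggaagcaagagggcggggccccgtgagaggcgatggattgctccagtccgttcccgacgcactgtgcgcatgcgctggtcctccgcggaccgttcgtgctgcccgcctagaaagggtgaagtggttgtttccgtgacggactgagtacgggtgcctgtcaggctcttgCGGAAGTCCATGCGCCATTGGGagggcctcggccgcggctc
MIEF1: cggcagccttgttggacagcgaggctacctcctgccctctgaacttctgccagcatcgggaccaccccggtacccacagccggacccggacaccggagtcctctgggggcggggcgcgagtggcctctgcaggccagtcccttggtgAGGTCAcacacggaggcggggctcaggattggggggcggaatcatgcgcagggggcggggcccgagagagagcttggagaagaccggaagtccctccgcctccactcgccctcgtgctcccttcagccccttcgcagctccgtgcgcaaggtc
MTFP1: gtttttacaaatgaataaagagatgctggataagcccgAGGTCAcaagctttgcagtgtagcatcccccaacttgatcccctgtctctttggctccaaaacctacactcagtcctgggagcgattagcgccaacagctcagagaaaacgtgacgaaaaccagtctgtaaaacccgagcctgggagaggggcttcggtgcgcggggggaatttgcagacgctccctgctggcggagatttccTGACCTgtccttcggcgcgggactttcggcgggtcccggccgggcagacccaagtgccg

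The matched ERRα peak covered all 300 bases of the MFN2 and MIEF1 windows, 263 bases of the MTFP1 window and 251 bases of the OPA1 window. The core motif AGGTCA occurred once in the MIEF1 window, 103 bases before the start on the plus strand. It occurred at 2 places in the MTFP1 window, 212 bases before the start on the plus strand and 9 bases before it on the minus strand. The MFN2 and OPA1 windows held no such match. Only exact letters were searched, so near matches were not counted, and the bases of a peak outside its window were not read. Of 35116 promoter windows of the same length, 13.8% held AGGTCA on at least 1 strand, and among the 216 windows with a reproducible summit inside them 58.8% did. Those 216 include the MFN2 and OPA1 windows but not those of MIEF1 and MTFP1, whose matched summits lie 18 and 279 bases past the window. The longer forms AAGGTCA, TNAAGGTCA and TCAAGGTCA, each of which contains AGGTCA, were in none of the 12 windows listed for 9 of the 10 genes. Their shares were 3.92%, 0.951% and 0.353% of all windows, and 42.6%, 15.7% and 11.1% of those with a reproducible summit. The MIEF1 window ended in AAGGTC, the first 6 letters of AAGGTCA, and the next base lies beyond it. Of all windows, 3 ended in these letters. The AP-1 site TGANTCA was in none of the 12 windows, against 7.71% of all windows and 7.87% of those with a reproducible summit. CCAAT, the NF-Y site, was in 9 of the 12 windows, belonging to 6 genes. It was in 34.6% of all windows and 30.1% of those with a reproducible summit. Of the 9, only the OPA1 window had a reproducible summit inside it. These matches describe letters in a window and are not shown to be sites of binding.

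A peak's fold enrichment is the authors' ratio of the ChIP signal at the summit, the highest point of the peak, to the local background from the inputs. Peaks found in both replicates were listed by the authors with an irreproducible discovery rate (IDR), and those with an IDR of at most 0.05 are called reproducible here. There were 5070 of them on chromosomes 1 to 22, X and Y, out of 10059 matched peaks, 14072 peaks in replicate 1 and 12659 in replicate 2. IDR selects for agreement between replicates, so the like heights of reproducible peaks are not separate evidence of it. Peak lists of 2 ChIP libraries allow no test over samples. Counts of genes with a summit are given with the share of all protein-coding genes in the same list, where that share was computed.

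Reproducible ERRα summits stood at the starts of MFN2 and OPA1 among the fusion genes, and of MTFP1 and MIEF1 among the fission genes. MFN1 and MFF had no summit in any list, and the peaks in the loci of DNM1L, MIEF2 and MTFR1 did not pass IDR or were found in a single replicate. In all, 5 of the 10 genes had a reproducible summit inside them or within 50 kb, against 33.7% of all protein-coding genes. A reproducible summit within 1 kb of either end of the gene was found for 3 of the 10, MFN2, OPA1 and MTFP1, against 4.49% of all protein-coding genes. Counted from the starts listed by RefSeq, 4 of the 9 genes with a listed start had a summit within 1 kb, the same 3 and MIEF1, against 4.51% of 15843 protein-coding genes.

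**Figure D1:**
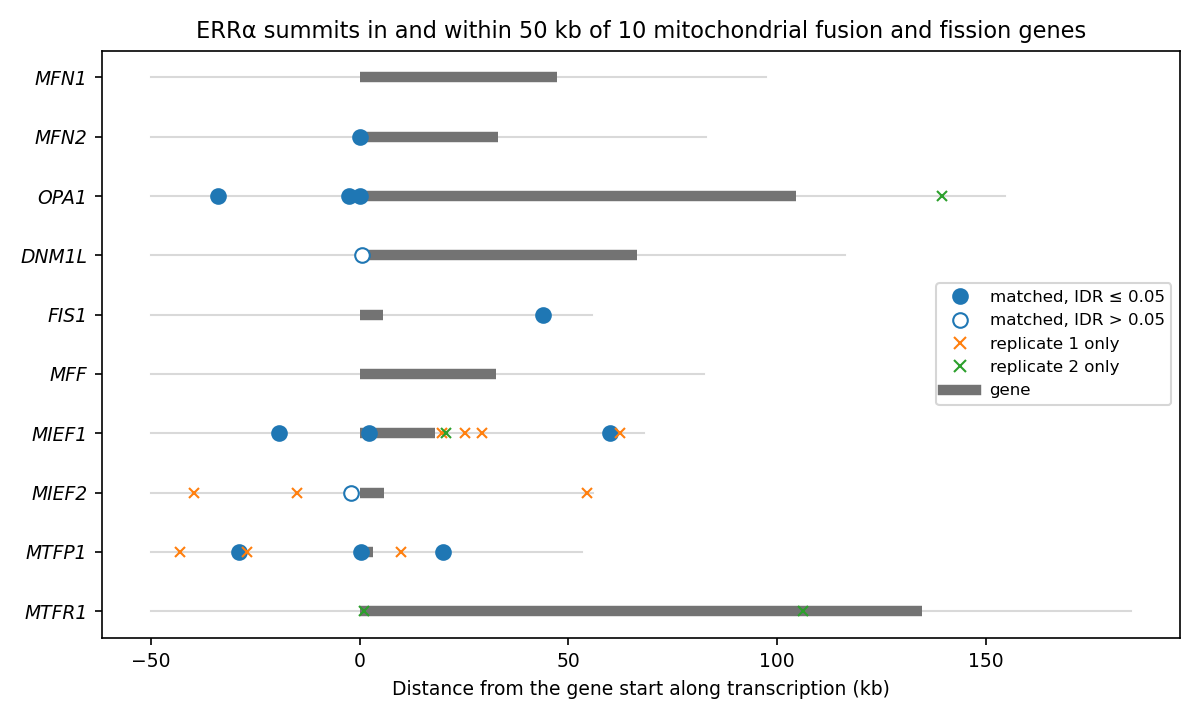
Map of ERRα summits at the 10 genes, with the distance in kb from the gene start along transcription (from the lower coordinate for MTFR1) on the horizontal axis, the gene as a thick bar and the 50 kb on each side as a thin line. Filled circles are matched peaks with an IDR of at most 0.05, open circles matched peaks above it, and crosses peaks of 1 replicate. There are 11 filled circles, none of them at MFN1, DNM1L, MFF, MIEF2 or MTFR1.

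Of the fusion genes, MFN2 (chromosome 1, 11980444 to 12013508) had a single peak in its locus, spanning 11979538 to 11980755. Its fold enrichment was 15.2 in replicate 1 and 10.5 in replicate 2, a mean of 12.8 ± 3.36 (SD, n = 2), so replicate 1 was the higher by 1.45 times. The summit lay 61 bp after the MFN2 start in replicate 1 and 21 bp after it in replicate 2, and no other protein-coding gene has an end within 1 kb of it. The −log10 q of the peak was 35.5 and 18.4 in replicates 1 and 2.

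OPA1 (chromosome 3, 193593208 to 193697811) had 3 reproducible summits, of which the one at its start had the lowest mean. That peak spanned 193593007 to 193593547 and reached 12.6 in replicate 1 and 10.5 in replicate 2 (mean 11.6 ± 1.45, SD, n = 2). Its summits were 30 and 9 bp after the OPA1 start. The summit is also within 1 kb of the upper-coordinate end of ATP13A4, a gene of a P5-type transport ATPase on the opposite strand, which lies 89 bp from the OPA1 start. The peak can therefore not be assigned to OPA1 rather than ATP13A4, though the listed start nearest to the matched summit was that of OPA1, at 19 bp. A second peak lay 2.54 kb upstream of OPA1, inside ATP13A4, with 11.7 and 12.2 (mean 11.95 ± 0.331), which differs from the peak at the start by less than the SD of the latter. The strongest peak of the locus lay 33.9 kb upstream, also inside ATP13A4 and 4.37 kb from a listed start of that gene. It reached 25.6 in replicate 1 and 23.02 in replicate 2 (mean 24.3 ± 1.85), and its values in both replicates were above those of both other OPA1 peaks.

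MFN1 (chromosome 3, 179347709 to 179394936) had no summit inside the gene or within 50 kb in either replicate's list or in the matched list. Its nearest reproducible summit was 210 kb away, and the nearest peak of replicate 1 was 187 kb away with a fold of 6.10. The paralogues MFN1 and MFN2 thus differed in that MFN2 alone had a peak at its start. Their promoter windows contained 57.0% and 71.3% G and C, in that order, against a median of 58.7% over all windows and 63.3% over windows with a reproducible summit. The part of base composition in the presence of a peak was not tested.

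Among the fission genes, MTFP1 (chromosome 22, 30425768 to 30429054) had the peak at a start with the highest mean fold, though MIEF1 was higher in replicate 1 (24.7). The MTFP1 peak spanned 30425555 to 30426658 and reached 22.5 in replicate 1 and 20.1 in replicate 2 (mean 21.3 ± 1.63, SD, n = 2). Its summits, 319 and 337 bp after the start, lay inside the gene and past the window shown above. The same summit is within 1 kb of the end of SEC14L2, a gene of a lipid-binding protein on the same strand, whose upper coordinate is 465 bp before the MTFP1 start. A second reproducible peak of the locus stood 194 bp from the start of SEC14L2 and 28.9 kb upstream of MTFP1, with 8.75 and 10.5 (mean 9.61 ± 1.22). The remaining peak lay outside protein-coding genes, 16.7 kb downstream of MTFP1 and 1.92 kb from an end of SEC14L3, with 10.3 and 9.79 (mean 10.1 ± 0.378). The peak at the MTFP1 start was above both in each replicate.

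MIEF1 (chromosome 22, 39500100 to 39518132), an adaptor that recruits the fission GTPase, had a peak of similar height spanning 39502025 to 39502994. It reached 24.7 in replicate 1 and 17.7 in replicate 2 (mean 21.2 ± 4.96, SD, n = 2). The summit lay 2.26 kb inside the gene as the gene table bounds it, and MIEF1 is therefore not among the genes with a summit within 1 kb of an end. RefSeq's promoter table lists the start of MIEF1 2190 bp further in, and from that start the summits were 47 bp downstream in replicate 1 and 88 bp downstream in replicate 2. The closest end of another gene was that of MIURF, which encodes a small protein from an upstream reading frame of the MIEF1 transcript, at 1.87 kb. The locus held 2 further reproducible peaks, both weaker. One was 19.4 kb upstream inside MGAT3, a glycosyltransferase gene, with 8.37 and 8.46 (mean 8.42 ± 0.0620). The other was 41.8 kb downstream outside protein-coding genes, 10.8 kb from the calcium channel gene CACNA1I, with 10.8 and 11.5 (mean 11.1 ± 0.550).

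FIS1 (chromosome 7, 101239472 to 101245081), another outer membrane adaptor, had a single reproducible summit in its locus, 38.2 kb away. It stood 224 bp from the start of MOGAT3, an acyltransferase gene, and its folds were 14.8 in replicate 1 and 9.67 in replicate 2 (mean 12.3 ± 3.66, SD, n = 2). This was the nearest summit to FIS1 in each of the lists, and with a window of 10 kb FIS1 has none.

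DNM1L (chromosome 12, 32679301 to 32745650), the gene of the fission GTPase itself, had a weak peak in both replicates that did not pass IDR. Its fold was 4.45 in replicate 1 and 5.24 in replicate 2 (mean 4.85 ± 0.561, SD, n = 2), and its summits were 576 and 513 bp after the start. The nearest reproducible summit was 927 kb from the gene. At MIEF2 (chromosome 17, 18260662 to 18266552), the paralogue of MIEF1, a matched peak that did not pass IDR lay 2.16 kb upstream. This peak was inside the actin regulator gene FLII, within 1 kb of its end and 233 bp from a listed start of FLII. It reached 4.74 and 3.43 (mean 4.09 ± 0.929). Both peaks were weaker in each replicate than all 11 reproducible peaks of the loci.

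MTFR1 (65643889 to 65778598 on its chromosome) had peaks in replicate 2 alone. One lay 959 bp inside an end of the gene with a fold of 4.71, the other 28.4 kb inside it with 4.06. In replicate 1 the nearest summit was 243 kb away. MFF (chromosome 2, 227325251 to 227357836), an adaptor of the fission GTPase, had no summit in its locus in any list. The nearest summit was 57.8 kb from the gene in replicate 1, with a fold of 5.33, and the nearest reproducible one 205 kb. Besides those of MTFR1, 12 peaks of a single replicate lay in the loci of OPA1, MIEF1, MIEF2 and MTFP1. The strongest of all 14 was 14.99 kb upstream of MIEF2 in replicate 1 at the adjoining ends of LLGL1 and FLII, with a fold of 9.22, which is above the replicate 1 values of 2 reproducible peaks (8.37 and 8.75). The weakest had 3.79.

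**Figure D2:**
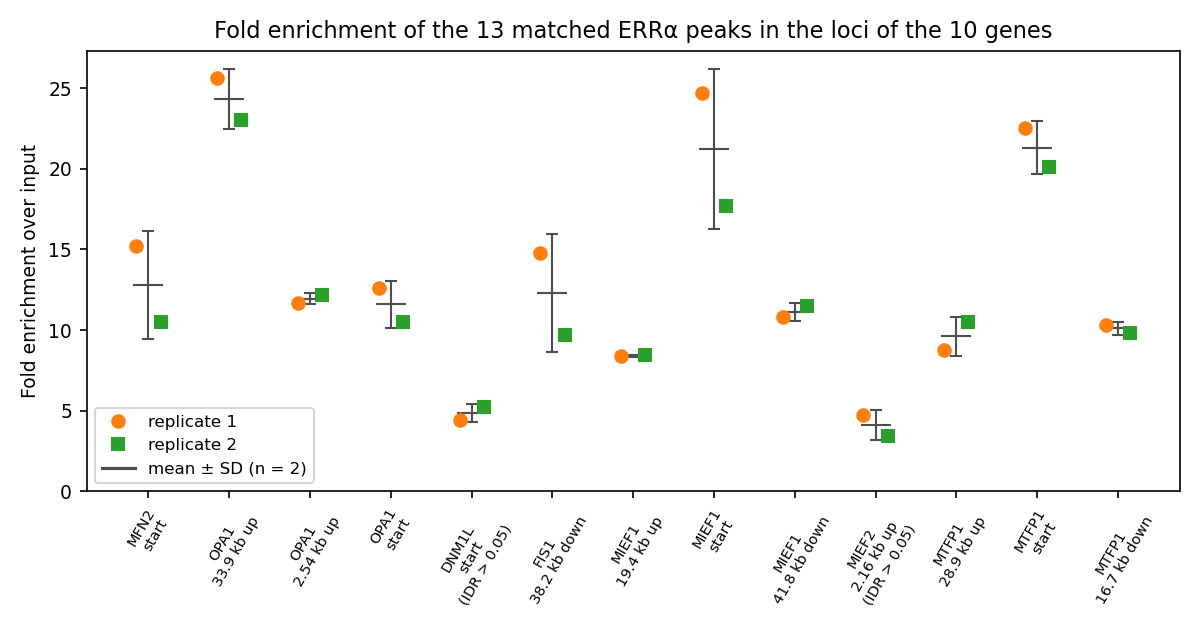
Fold enrichment over input of the 13 matched peaks in the loci, for replicate 1 (circles) and replicate 2 (squares), with the mean and SD (n = 2) as a bar. Labels give the place of the summit: within 1 kb of a listed start of the gene, or the distance upstream or downstream of it. The peaks at the starts of MTFP1 and MIEF1 and the peak 33.9 kb upstream of OPA1 stand above the others in both replicates.

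Ordered by mean fold, the peaks at starts came as MTFP1 (21.3), MIEF1 (21.2), MFN2 (12.8) and OPA1 (11.6). MTFP1 and MIEF1 differed by less than the SD of either, and MFN2 and OPA1 likewise. The lowest replicate value of the first pair, 17.7 at MIEF1, was above the highest of the second, 15.2 at MFN2. Among all 5070 reproducible peaks, MTFP1 ranked 1092 and MIEF1 1100, and MFN2 and OPA1 ranked 2565 and 3046. The median mean fold over all reproducible peaks was 12.9, which lay above MFN2 and OPA1 and below MTFP1 and MIEF1. The 11 reproducible peaks of the loci ran from 8.42 to 24.3 with a median of 11.95. Replicate 1 was higher at 7 of these 11, all 4 peaks at starts included, against 57.3% of all reproducible peaks. The ratio of replicate 1 to replicate 2 ran from 0.836, at SEC14L2, to 1.54, at MOGAT3.

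**Figure D3:**
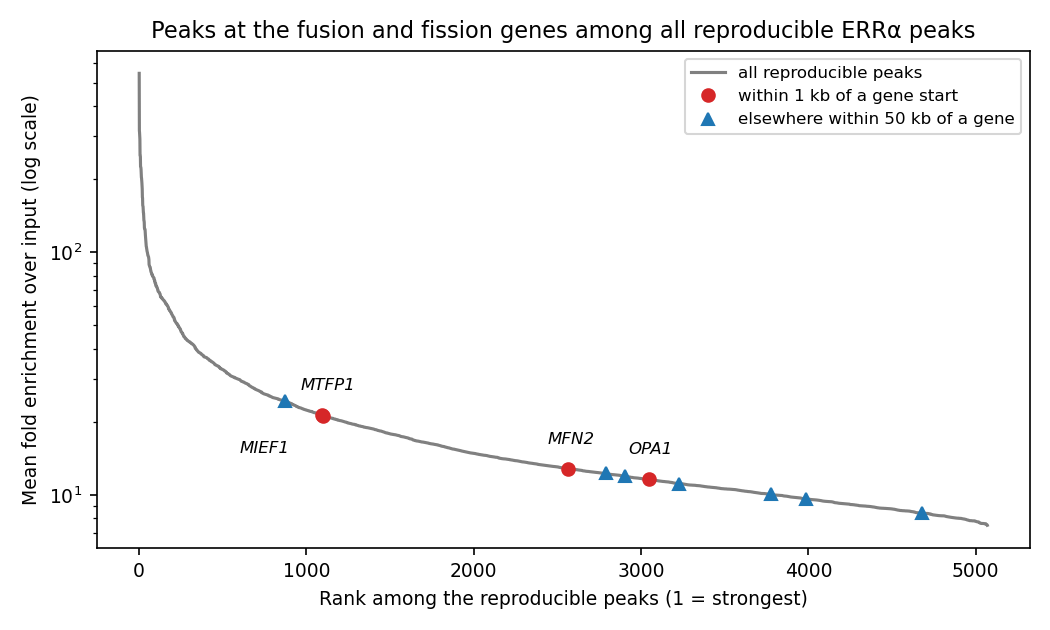
Mean fold enrichment (log scale) of all 5070 reproducible peaks against their rank, with the 11 peaks of the loci marked. Circles are peaks within 1 kb of a listed start of MTFP1, MIEF1 (these overlap), MFN2 and OPA1, and triangles are peaks elsewhere within 50 kb of a gene. The strongest of the 11, upstream of OPA1, ranks 874.

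The 4 summits at starts lay 19 bp (OPA1), 41 bp (MFN2), 67 bp (MIEF1) and 328 bp (MTFP1) downstream of the listed start, by the matched summit. All 4 were thus downstream, and 3 were within 100 bp. Over all 715 protein-coding genes with a reproducible summit within 1 kb of a listed start, 50.1% of summits were downstream and 13.99% were within 100 bp, with a median distance of 361 bp. The summits of the replicates were 18 to 41 bp apart at these 4 starts, and 10 to 84 bp apart over the 11 peaks.

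With weaker peaks included, 4 of the 10 genes had a matched summit within 1 kb of an end, DNM1L being the addition, against 8.85% of all protein-coding genes. In the list of replicate 1 the same 4 did, against 12.2%. In that of replicate 2 there were 5, MTFR1 being the addition, against 10.99%. In the gene or within 50 kb, 7 of the 10 had a matched summit (50.8% of all protein-coding genes), 7 a summit of replicate 1 (59.95%) and 8 one of replicate 2 (56.9%).

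Other genes that regulate mitochondrial fusion, fission, transport and quality control were read from a list of 34, none of them among the 10. Of these, 4 (11.8%) had a reproducible summit within 1 kb of an end, against 4.49% of all protein-coding genes, and each of these summits was also within 1 kb of a listed start of its gene. Among 10 genes listed under fusion and its regulators, PHB2, a prohibitin of the inner membrane, had a summit shared with EMG1. It reached 15.9 in replicate 1 and 12.6 in replicate 2 (mean 14.2 ± 2.34, SD, n = 2). CHCHD3, placed in the same group by the list though it is a subunit of the cristae-forming complex, reached 11.4 and 9.67 (mean 10.5 ± 1.24). Among 14 fission regulators, MUL1, an outer membrane ubiquitin ligase, reached 15.3 and 14.2 (mean 14.7 ± 0.816). Among 10 genes of transport and quality control, RHOT2, a GTPase that links mitochondria to motor proteins, reached 13.6 and 14.1 (mean 13.9 ± 0.332) at a summit shared with WDR90. These 4 peaks were below those at MTFP1 and MIEF1 in each replicate.

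In the wider loci, 14 of the 34 (41.2%) had a reproducible summit in the gene or within 50 kb, a share near the 33.7% of all protein-coding genes. The strongest of each role stood at other genes. It was 9.25 kb from MIGA2, a fusion factor, and within 1 kb of an end of SH3GLB2 (mean 22.9 ± 0.956, SD, n = 2). Near USP30, a deubiquitinase of the outer membrane, it was 23.02 kb away at ends of UNG and ACACB (mean 28.6 ± 0.0578). Near RHOT2 it was 25.8 kb away at MCRIP2 (mean 35.8 ± 6.39). In the list of replicate 1, 10 of the 34 (29.4%) had a summit at an end, against 12.2% of all protein-coding genes. In that of replicate 2 it was 9 (26.5%), against 10.99%, and among all matched peaks 8 (23.5%), against 8.85%.

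**Figure D4:**
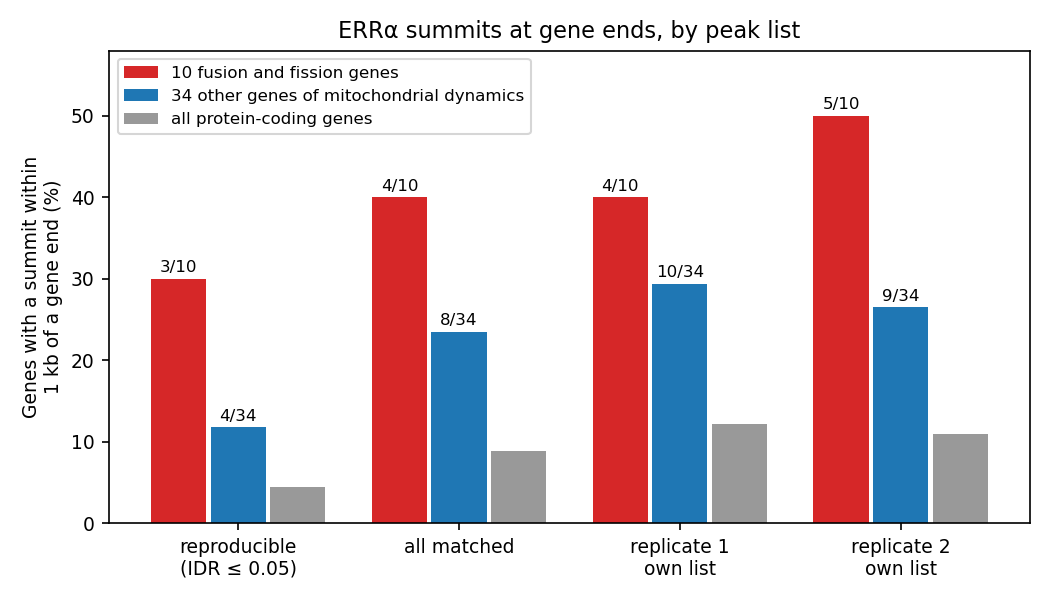
Percent of genes with an ERRα summit within 1 kb of either gene end, for the 10 fusion and fission genes, the 34 other genes of mitochondrial dynamics and all protein-coding genes, in 4 peak lists. The numbers above the bars give the genes with a summit. The bars of the 10 genes run from 3 of 10 with reproducible peaks to 5 of 10 in the list of replicate 2, and those of all protein-coding genes from 4.49% to 12.2% in replicate 1.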

How the data were processed

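ERRα ChIP-seq peaks of 2 replicates of MDA-MB-231 cells were read from the authors' peak lists, each made against both inputs. The submitters' processing notes name MACS2 2.2.6, Bowtie2 2.3.5, Trim Galore 0.6.5, deepTools, SAMtools, Picard and the build hg38, with no settings. The deposited values are a fold enrichment (a ratio), a −log10 p and −log10 q value and a score per peak, and in the matched list an IDR score, of which at least 540 (IDR 0.05) was required. Read counts were not used. The read depth behind a fold was not taken into account, and no interval covers it.

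A summit is the peak start plus the deposited offset. Genes came from RefSeq GRCh38.p14, the same build as hg38, and starts from its promoter table, which holds 9 of the 10 genes. The gene table gives no strand, so both gene ends were used. Computations used Python 3.11.15, pandas 2.3.3 and numpy 2.4.6. Window counts were tested on simulated summits around isolated genes, which did not cover summits shared by neighbouring genes. No test was made. Peaks on other contigs (272 matched) were left out. The members and lists were chosen with earlier results of these data known. Of the list of 34, the text names each gene with a reproducible summit at an end and the one with the strongest peak in each of 3 roles, and of the neighbours those sharing a summit; other neighbours were named after their values were seen. Alternatives were an IDR of 0.01 or none, single replicate lists, a −log10 q of at least 5, and windows of 500 bp, 5 kb, 10 kb and 100 kb.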

Additional observations from a re-analysis of the deposited data

How the results depend on the processing

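The 3 genes with a reproducible summit at an end were MFN2, OPA1 and MTFP1. They were the same 3 at an IDR of 0.01, with a −log10 q of at least 5 in both replicates and with a window of 500 bp. A window of 5 kb or the listed starts added MIEF1. Of these settings, the share of all protein-coding genes was computed only for the listed starts (4.51%), so the other counts have no share beside them. With either replicate left out, the other's own list, which holds weaker peaks, gave 4 to 5 genes with a summit at an end. The shares of all protein-coding genes were 12.2% and 10.99% in the lists of replicates 1 and 2, against 4.49% with reproducible peaks. In the gene or within 50 kb, 7 to 8 had a summit, against 59.95% and 56.9% of all protein-coding genes in replicates 1 and 2. The loci then held 17 to 23 summits in place of 11. With a window of 10 kb 5 summits were left, and 4 were nearest to one of the 10 genes rather than to another protein-coding gene. Of the 34 other genes, 8 had a summit at an end with all matched peaks, where 8.85% of all protein-coding genes did. With a replicate left out there were 9 to 10, beside the same 12.2% and 10.99%. With reproducible peaks there were 4, beside 4.49%. With n = 2 an SD is itself imprecise. A gene without a peak in these lists is not shown to lack ERRα binding. No paired analysis was possible because the results come from no test and each peak list sets 1 ChIP replicate against both inputs.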
